A study of Mus musculus with 28 samples.

Results

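Endothelial cells from kidneys injured by ischemia were compared between male FVB mice that had received exosomes and male FVB mice that had received scrambled miRNA. The comparison takes 6 of the 28 samples of the series, 3 exosome libraries and 3 scrambled-miRNA libraries, picked by the cell type and treatment in their titles. All 6 mice carried the injury, so no uninjured kidney enters the comparison, and scrambled miRNA stands as the control treatment. Endothelial cells had been captured from enzymatically digested kidney with magnetic microbeads against CD31. Per the extraction notes each group was drawn from 3 mice, and each library was taken as 1 mouse. The labels used here give no cell of origin or dose for the exosomes and no time between injury and collection. The series also holds the same treatments in proximal tubular cells and a miR-486-5p mimic arm, and per-sample files of 16 samples were used.

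Endothelial cells line the peritubular and glomerular capillaries, and after ischemia they display adhesion molecules such as ICAM-1, VCAM-1 and E-selectin that hold leukocytes to the vessel wall. Exosomes are small membrane vesicles that carry proteins and RNA from one cell to another, and scrambled miRNA is an RNA without a designed target. The miRNA miR-486-5p, which the series gives as a mimic in another arm, is known to repress Foxo1, a transcription factor that AKT signalling inhibits.

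The exosome libraries held 12.7, 13.6 and 12.1 M reads assigned to genes, and the scrambled-miRNA libraries 9.26, 8.27 and 11.8 M reads (M, 1e+06). Transcripts of the defining endothelial genes were present in every library. On the TPM scale, which is per transcript length, Pecam1 (the CD31 antigen of the capture; chromosome 11, 106654217 to 106750628, minus strand, GRCm38) had 38.9, 34.7 and 41.1 TPM with exosomes and 43.3, 69.5 and 40.1 TPM with scrambled miRNA. The summed TPM of the 25 endothelial identity genes was 657, 697 and 799 TPM with exosomes and 763, 1364 and 800.5 TPM with scrambled miRNA, and from 52.7 to 104 TPM in the 6 proximal tubular libraries of the same treatments. Other kidney cells contributed much RNA. Umod, the uromodulin of the thick ascending limb, reached 4850.4, 5735 and 8029 TPM with exosomes and 3505, 7737 and 5339 TPM with scrambled miRNA, far above Pecam1 on the same scale. In bulk RNA, fewer cells of a type and less RNA per cell cannot be told apart.

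Exosome replicates 1 and 2 stood apart from their group in RNA of tubule cells. On the scale used from here on, CPM after TMM normalisation (reads scaled to library size), the summed level of 25 proximal tubule genes was 35189, 7168 and 5009.7 CPM in exosome replicates 1 to 3, against 17247, 8676 and 10341 CPM in scrambled-miRNA replicates 1 to 3. The summed level of 26 tubule injury genes was 4763, 23092 and 4831 CPM with exosomes, against 23992, 27781 and 34929 CPM with scrambled miRNA. Exosome replicate 1 was thus the highest of the 6 libraries in proximal tubule RNA, and exosome replicate 2 lay close to the scrambled-miRNA libraries in injury RNA while its group mates did not. Results that touch these genes are given with and without those libraries. The share of reads on all mitochondrially encoded genes (every symbol that starts with mt-) was 14.6, 23.8 and 23% with exosomes, against 9.08, 12.6 and 14.3% with scrambled miRNA.

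**Figure D1:**
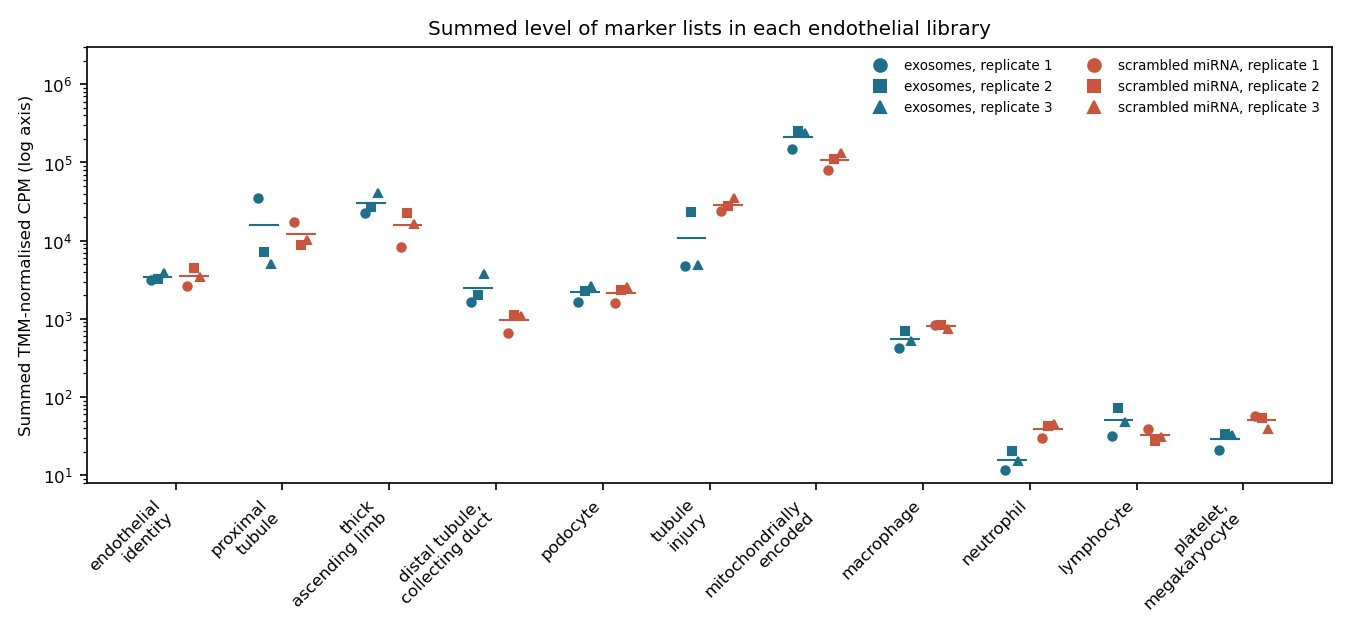
Summed TMM-normalised CPM (log axis) of marker lists in each endothelial library, exosomes left of scrambled miRNA in each pair; points are libraries and bars are group means. Exosome replicate 1 stands alone in proximal tubule RNA, exosome replicate 2 stands with the scrambled-miRNA libraries in tubule injury RNA, and the distal tubule sums do not overlap between groups.

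No gene passed the test for the whole comparison. Of 16316 genes tested with edgeR's quasi-likelihood test, 0 were called higher with exosomes (0%) and 0 lower (0%) at a Benjamini-Hochberg adjusted p under 0.05; the smallest adjusted p was 0.184. At an unadjusted p under 0.05, 1178 genes were higher (7.22%) and 682 were lower (4.18%). All 3 exosome libraries lay above all 3 scrambled-miRNA libraries for 1502 genes (9.21%) and below them for 972 (5.96%). DESeq2's Wald test, run as an alternative on the same counts, called 287 genes higher (1.76%) and 125 lower (0.767%) of 16296 with an adjusted p. With no filter on low counts, edgeR called 577 higher and 319 lower, 882 of them genes tested in the filtered fit. Without exosome replicate 1, edgeR called 2 genes higher and 7 lower, and without exosome replicate 2 it called 21 higher and 34 lower. The median log2 fold of all genes tested was 0.02, exosomes over scrambled miRNA. The genes below are therefore given by their values in each library, and none passed adjustment in this test. Counts of list members with each library left out in turn were chosen after seeing the data, and over all genes the shares at an unadjusted p under 0.05 in those fits ran from 4.48 to 9.30% higher and from 2.90 to 8.26% lower.

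Transcripts that define endothelial cells had levels that overlapped between the groups for 24 of 25 genes. Of the 25, 0 lay higher and 1 lower without overlap, beside 9.21% and 5.96% of all genes. Kdr, the main VEGF receptor, had 357, 312 and 436 CPM with exosomes, against 278, 512 and 371 CPM with scrambled miRNA, a log2 fold of -0.07 (SE 0.24). Pecam1 had 253, 272 and 285 CPM with exosomes, against 213, 343 and 248 CPM with scrambled miRNA (log2 fold 0.01, SE 0.21). The groups overlapped for both genes. Cdh5, the VE-cadherin of endothelial junctions, had 144, 173 and 198 CPM with exosomes, against 179, 249 and 190.4 CPM with scrambled miRNA (log2 fold -0.26, SE 0.19). On the TPM scale, which counts the mitochondrial reads in its total, the Cdh5 groups did not overlap, at 17.0, 15.2 and 19.2 TPM with exosomes, against 26.4, 34.1 and 22.4 TPM with scrambled miRNA. Emcn and Cldn5, a capillary sialomucin and a tight junction protein, had log2 folds of 0.21 (SE 0.21) and -0.06 (SE 0.29), and Plvap, the diaphragm protein of fenestrated capillaries, -0.03 (SE 0.25). The 25 identity genes had a median log2 fold of -0.03, 10 of them positive.

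Of those 25 genes 1 reached an unadjusted p under 0.05, beside 4.18% of all genes on that side. This was Vwf, the von Willebrand factor stored in endothelial granules and platelets, which was singled out after its values were seen. Vwf had 5.24, 6.65 and 5.47 CPM with exosomes, against 10.2, 17.0 and 9.68 CPM with scrambled miRNA, a log2 fold of -1.08 (SE 0.29) with an edgeR adjusted p of 0.218. Every exosome library lay below every scrambled-miRNA library. Vwf is also made by megakaryocytes, and of 8 platelet markers tested 4 had negative log2 folds, Pf4 and Ppbp among them, and 4 had positive ones; their part in the Vwf difference was not tested.

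Genes of vessel growth were mixed. Of 22 VEGF and angiopoietin genes, 4 were higher (Vegfb, Vegfc, Angpt1 and Esm1) and 2 lower (Flt4 and Apln) at an unadjusted p under 0.05, beside 7.22% and 4.18% of all genes, and the median log2 fold was 0.08. Esm1, endocan, a proteoglycan of VEGF-stimulated endothelium, had 50.7, 38 and 40.8 CPM with exosomes, against 24.7, 20.6 and 22.8 CPM with scrambled miRNA, a log2 fold of 0.93 (SE 0.24). Vegfb, a ligand of VEGF receptor 1, had 41.2, 41.4 and 72.0 CPM with exosomes, against 24.4, 23.7 and 28.9 CPM with scrambled miRNA (log2 fold 1.00, SE 0.24). Neither gene's groups overlapped, and DESeq2 called both, at adjusted p of 0.0443 and 0.0227. Flt4, the receptor of lymphatic growth factors, had 29.2, 36.5 and 40.9 CPM with exosomes, against 46.7, 57.0 and 45 CPM with scrambled miRNA (log2 fold -0.48, SE 0.17), also without overlap. Nrp1, a co-receptor of VEGF, had a log2 fold of -0.18 (SE 0.20) with groups that overlapped.

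Among Notch and arterial genes, 1 of 20 (Dll1) was higher and 1 (Gja5) lower at an unadjusted p under 0.05, beside 7.22% and 4.18% of all genes. The arterial ligand Efnb2 had a log2 fold of -0.07 (SE 0.19). Shear-responsive genes overlapped between groups for the most part. Klf2, the flow-induced transcription factor, had 72.6, 183 and 170.2 CPM with exosomes, against 77.4, 130.4 and 95.2 CPM with scrambled miRNA (log2 fold 0.49, SE 0.33), and its libraries were mixed in order. Nos3, which makes nitric oxide in endothelium, had 31.8, 38.9 and 45.1 CPM with exosomes, against 42.8, 55.1 and 34.5 CPM with scrambled miRNA (log2 fold -0.19, SE 0.20). Among 16 genes of that list, 1 lay higher and 2 lower without overlap, beside 9.21% and 5.96% of all genes. The higher gene was Cav1, of caveolae (log2 fold 0.36, SE 0.16, unadjusted edgeR p 0.0573), and the lower genes were Ptgs2 and Adamts1. Ptgs2, the inducible cyclooxygenase of prostaglandin synthesis, had 4.08, 10.7 and 7.32 CPM with exosomes, against 17.0, 34.4 and 20.4 CPM with scrambled miRNA (log2 fold -1.70, SE 0.37). Adamts1, a protease that cleaves matrix proteoglycans, had 111, 236 and 130.2 CPM with exosomes, against 304, 321 and 318 CPM with scrambled miRNA (log2 fold -0.98, SE 0.27). For Ptgs2 and Adamts1 edgeR's adjusted p was 0.194 and 0.232, and DESeq2 called both as lower.

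**Figure D2:**
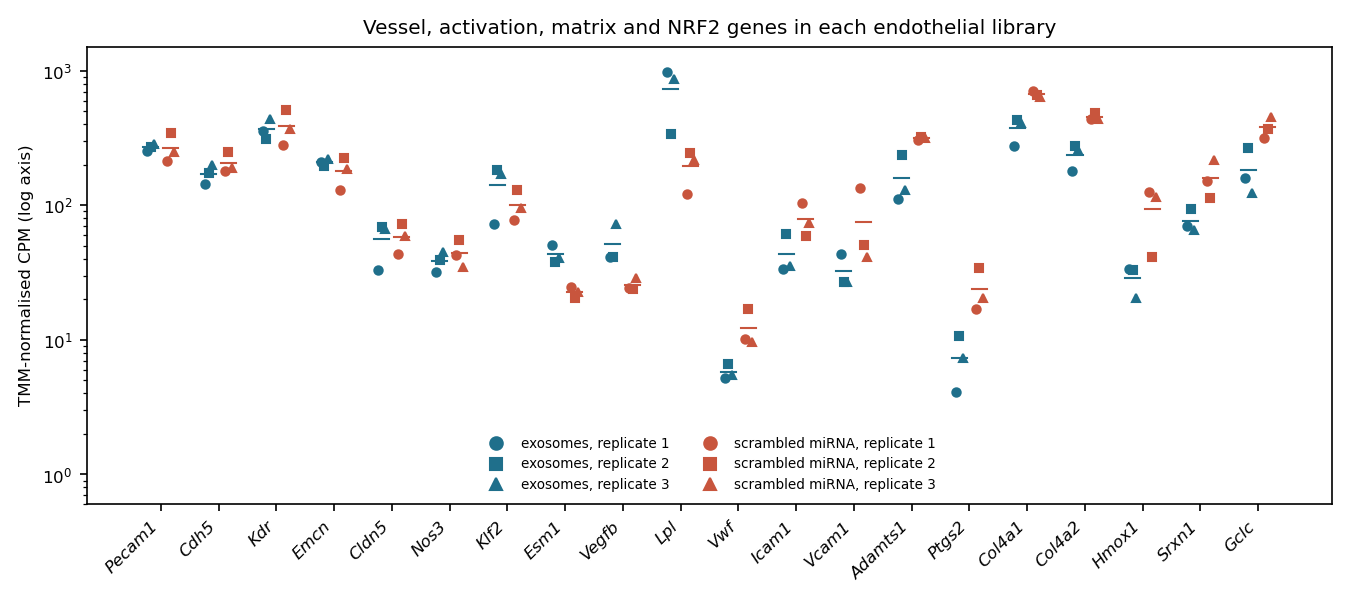
TMM-normalised CPM (log axis) of vessel, activation, matrix and NRF2 genes in each endothelial library, exosomes left of scrambled miRNA; points are libraries and bars are group means. The endothelial genes from Pecam1 to Klf2 overlap between groups, while Esm1, Vegfb and Lpl sit higher with exosomes and Vwf, Adamts1, Ptgs2, Col4a1, Col4a2, Hmox1, Srxn1 and Gclc sit lower without overlap.

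Genes of endothelial activation leaned to the lower side. Of 21 tested members of that list, 6 were lower (among them Vcam1, Icam1, Cx3cl1, Cxcl10 and Lcn2) and 0 higher at an unadjusted p under 0.05, beside 4.18% of all genes lower, with a median log2 fold of -0.55. Icam1 had 33.6, 61.0 and 35.2 CPM with exosomes, against 104, 59.1 and 73.3 CPM with scrambled miRNA, a log2 fold of -0.87 (SE 0.28) with an edgeR adjusted p of 0.279. Exosome replicate 2 lay above the lowest scrambled-miRNA library, so the groups overlapped. Vcam1 had 43.3, 26.9 and 27.0 CPM with exosomes, against 134, 51.0 and 41.1 CPM with scrambled miRNA (log2 fold -1.22, SE 0.43); injured tubule cells make it too. Sele, the E-selectin of activated endothelium, had 4.66, 9.46 and 6.44 CPM with exosomes, against 8.64, 8.65 and 4.04 CPM with scrambled miRNA (log2 fold -0.05, SE 0.37), with no separation. The plasminogen activators Plau and Plat, the most abundant members, had log2 folds of 0.14 (SE 0.18) and -0.22 (SE 0.32). Lcn2 is a member of the tubule injury list as well. In proximal tubular libraries the activation list's median was -1.16. There edgeR called 5 of 18 tested members lower and 0 higher, beside 359 of all 14913 genes lower. Icam1 and Vcam1 had log2 folds of -1.80 (SE 0.28) and -3.52 (SE 0.88) in those libraries.

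Inflammatory signalling genes showed a like pattern that depended on exosome replicate 2. Of 25 NF-kB and cytokine genes, 4 were lower at an unadjusted p under 0.05 (Cxcl2, Ccl7, Cxcl16 and Bcl3), beside 4.18% of all genes, and 24 had a negative log2 fold, with a median of -0.41. Cxcl2, a neutrophil-attracting chemokine, had 9.48, 27.3 and 9.52 CPM with exosomes, against 43.1, 44.0 and 42.1 CPM with scrambled miRNA (log2 fold -1.48, SE 0.43), and the groups did not overlap. Nfkbia and Tnfaip2, the members with most reads, had log2 folds of -0.04 (SE 0.26) and -0.10 (SE 0.27). Without exosome replicate 2 the list's median was -0.85 with 13 of 25 lower at an unadjusted p under 0.05 and 2 called by edgeR, and without exosome replicate 1 it was -0.17 with 2 lower. The number of NF-kB and cytokine genes lower was 2, 13 or 2 without exosome replicates 1, 2 or 3, and 2, 4 or 3 without scrambled-miRNA replicates 1, 2 or 3. For the activation list the values without exosome replicates 2 and 1 were -1.0 with 9 of 21 lower and 2 called, and -0.38 with 3 lower. Leaving out exosome replicates 1, 2 or 3 gave 3, 9 or 2 lower activation genes, and leaving out scrambled-miRNA replicates 1, 2 or 3 gave 5, 4 or 3. Over all genes, 896 of 16170 (5.54%) were lower without exosome replicate 2 and 1334 of 16150 (8.26%) without exosome replicate 1. Exosome replicate 2 also held the most tubule injury RNA of its group, as given above, and the part of that RNA in these lists was not tested. The interferon list, with 1 of 30 lower (beside 4.18% of all genes) and none higher, had a median of 0.12. Irf1, an interferon-induced transcription factor, had a log2 fold of 0.10 (SE 0.31).

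Matrix and TGF-beta genes were on the lower side. Of 28 matrix and TGF-beta genes, 10 were lower and 1 (Tgfb2) higher at an unadjusted p under 0.05, beside 4.18% and 7.22% of all genes. The groups did not overlap for 11 lower and 1 higher, beside 5.96% and 9.21% of all genes, and the median log2 fold was -0.35. Col4a1, a chain of basement membrane collagen, had 277, 433 and 408 CPM with exosomes, against 708, 659.6 and 636 CPM with scrambled miRNA, a log2 fold of -0.84 (SE 0.20) with an edgeR adjusted p of 0.195. Its partner chain Col4a2, whose gene shares the promoter region of Col4a1, had 178, 276 and 258 CPM with exosomes, against 437, 484 and 437 CPM with scrambled miRNA (log2 fold -0.93, SE 0.19). For both chains every exosome library lay below every scrambled-miRNA library, and DESeq2 called both, at adjusted p of 0.00426 and 0.00088. Fn1, fibronectin, had 11.4, 27.4 and 26.2 CPM with exosomes, against 152, 51.4 and 69.7 CPM with scrambled miRNA (log2 fold -2.07, SE 0.45), the highest value being scrambled-miRNA replicate 1. Sparc, the most abundant matrix gene, had a log2 fold of -0.11 (SE 0.21). The fibrillar collagen genes Col1a1 and Col3a1, which mark fibroblasts, had log2 folds of -1.87 (SE 0.60) and -2.11 (SE 0.60) at levels of at most 5.66 CPM. Without exosome replicates 1, 2 or 3 in turn 7, 8 or 10 matrix genes were lower, and without scrambled-miRNA replicates 1, 2 or 3 the number was 9, 7 or 6. In proximal tubular libraries the list's median was -0.87. There edgeR called 4 of 24 tested members lower and 0 higher, beside 359 of all 14913 genes lower. Col4a1 and Col4a2 had log2 folds of -1.16 (SE 0.17) and -1.09 (SE 0.23) in those libraries. The part of tubule RNA in the matrix genes was not tested.

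Lipid handling genes had 4 of 20 tested members higher (Lpl, Ppargc1a, Insig1 and Scd2) and 0 lower at an unadjusted p under 0.05, beside 7.22% of all genes higher. The list's median was -0.02, with 11 of the 20 log2 folds negative. Lpl, the lipase that frees fatty acids at the capillary surface, had 975, 337 and 870 CPM with exosomes, against 122, 244 and 216 CPM with scrambled miRNA, a log2 fold of 1.91 (SE 0.40) with an edgeR adjusted p of 0.186. All exosome libraries lay above all scrambled-miRNA libraries, exosome replicate 2 by the least, and DESeq2 called the gene at an adjusted p of 0.00054. Without exosome replicate 2 edgeR called it too, at an adjusted p of 0.0341 and a log2 fold of 2.26. In proximal tubular libraries Lpl was also higher with exosomes, at a log2 fold of 1.10 (SE 0.21) with an edgeR adjusted p of 0.0321. The part of tubule RNA in the Lpl difference was not tested. Cd36, the fatty acid transporter, had 585, 125 and 102 CPM with exosomes, against 477, 249 and 313 CPM with scrambled miRNA (log2 fold -0.36, SE 0.59), and overlapped. Ppargc1a, a coactivator of mitochondrial biogenesis, had 116, 89.7 and 150.1 CPM with exosomes, against 54.4, 83.7 and 62.8 CPM with scrambled miRNA (log2 fold 0.82, SE 0.23). Plin2, which coats lipid droplets, was among the lower genes described further on.

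Antioxidant genes under NRF2, the transcription factor that answers oxidants, all had negative log2 folds. Of 20 members 10 were lower and 0 higher at an unadjusted p under 0.05 (beside 4.18% of all genes). On the lower side 7 did not overlap (beside 5.96% of all genes), and the median log2 fold was -0.56. Hmox1, heme oxygenase, had 33.4, 33.1 and 20.4 CPM with exosomes, against 126, 41.0 and 114 CPM with scrambled miRNA, a log2 fold of -1.69 (SE 0.38) with an edgeR adjusted p of 0.194. Srxn1, which reactivates peroxiredoxins, had 70.4, 94.5 and 65.3 CPM with exosomes, against 150.3, 113 and 217 CPM with scrambled miRNA (log2 fold -1.06, SE 0.25). Gclc, the catalytic subunit of glutathione synthesis, had 159.8, 267 and 124 CPM with exosomes, against 316, 370.2 and 452 CPM with scrambled miRNA (log2 fold -1.05, SE 0.28). In these 3 genes the groups did not overlap, and DESeq2 called all 3. The iron store subunits Fth1 and Ftl1, the members with most reads, had log2 folds of -0.80 (SE 0.31) and -0.69 (SE 0.31), with scrambled-miRNA replicate 2 inside the exosome range of both. The number of NRF2 genes lower was 14, 9 or 4 without exosome replicates 1, 2 or 3, and 7, 13 or 4 without scrambled-miRNA replicates 1, 2 or 3. The list's median ran from -0.81 to -0.42 over those fits. NRF2 itself (Nfe2l2) and its inhibitor Keap1 had log2 folds of -0.05 (SE 0.19) and -0.07 (SE 0.16). These genes are active in tubule cells as well, and the part of tubule RNA in them was not tested.

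NRF2 binds the antioxidant response element, whose core was searched as TGACNNNGC on both strands of RefSeq promoters (GRCm38.p6), each from 250 bases before to 50 after a gene's start. A match was present in 12.4% of 32851 promoters and in 7 of the 22 promoters that the table holds for 17 NRF2 genes, each in a different gene. The windows around these matches are shown 5' to 3' on the gene's strand, with the 9 matching bases in capitals, for the members whose values are given with them.
Srxn1: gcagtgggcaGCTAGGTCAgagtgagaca
Txnrd1: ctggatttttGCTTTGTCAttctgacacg
G6pdx: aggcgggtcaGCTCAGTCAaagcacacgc
Pgd: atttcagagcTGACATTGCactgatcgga
Gclm: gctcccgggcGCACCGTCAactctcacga
Prdx1: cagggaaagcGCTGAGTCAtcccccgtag
Nfe2l2: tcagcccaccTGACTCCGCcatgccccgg
They lie at chr2:152105542-152105570, chr10:82859104-82859132, chrX:74428919-74428947 (minus strand), chr4:149166061-149166089 (minus strand), chr3:122245413-122245441, chr4:116685456-116685484 and chr2:75704885-75704913 (minus strand). Srxn1, Txnrd1 (thioredoxin reductase), G6pdx and Pgd (the NADPH-making steps of the pentose phosphate pathway) were the members with a match that reached an unadjusted p under 0.05, with log2 folds of -1.06, -0.59, -0.49 and -0.66. Gclm (the modifier subunit of glutathione synthesis), Prdx1 (a peroxiredoxin) and Nfe2l2 had -0.52, -0.21 and -0.05. Hmox1 and Gclc had no promoter among the 22 searched, and the promoters of Nqo1, Fth1 and Ftl1 held no match. A match is a description of these letters in this window.

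Among genes reported as miR-486-5p targets, 1 (Cadm1) lay lower without overlap and 0 higher, beside 5.96% and 9.21% of all genes. Of 11 listed, 10 were tested, and 1 was lower and 0 higher at an unadjusted p under 0.05, beside 4.18% and 7.22% of all genes. The median log2 fold was 0.04. Foxo1, which AKT holds out of the nucleus, had 69.3, 46.4 and 50.8 CPM with exosomes, against 52.8, 48.0 and 51.7 CPM with scrambled miRNA (log2 fold 0.13, SE 0.17). Igf1r and Arhgap5 had log2 folds of -0.12 (SE 0.20) and 0.19 (SE 0.23). All 3 genes overlapped between groups. Cadm1, a cell adhesion molecule, was the 1 member under that p, at 22.2, 19.2 and 16.9 CPM with exosomes, against 29.9, 22.7 and 30.6 CPM with scrambled miRNA (log2 fold -0.51, SE 0.19, edgeR adjusted p 0.343). Ank1, whose gene hosts the miRNA, was too low to test, at 0.25, 0.32 and 0 CPM with exosomes and 0.40, 0.22 and 0 CPM with scrambled miRNA. mRNA levels do not measure repression of translation, and small RNA was not measured.

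Of 25 PI3K, AKT and FoxO genes, 2 were higher (Foxo3 and Irs2) and 1 lower (Pik3r1) at an unadjusted p under 0.05. The shares of all genes were 7.22% and 4.18%, and the list's median log2 fold was -0.01. Of 18 FoxO-responsive genes, 4 were higher (Cdkn1b, Sod2, Irs2 and Ccng2) and 1 lower (Pdk4), beside 7.22% and 4.18% of all genes, with a median of 0.13. Cdkn1b, an inhibitor of the cell cycle, had 65.5, 59.6 and 67.8 CPM with exosomes, against 38.1, 53 and 47.5 CPM with scrambled miRNA (log2 fold 0.48, SE 0.17). Sod2, the superoxide dismutase of mitochondria, had 304, 187 and 246 CPM with exosomes, against 174, 186 and 169 CPM with scrambled miRNA (log2 fold 0.48, SE 0.19). Both were without overlap, and neither passed adjustment by edgeR (0.332 and 0.395) or DESeq2 (0.266 and 0.296). Leaving out exosome replicates 1, 2 or 3 gave 4, 4 or 0 higher FoxO-responsive genes, and leaving out scrambled-miRNA replicates 1, 2 or 3 gave 1, 2 or 2. Pck1 and Txnip, the members with most reads, had log2 folds of -0.74 (SE 0.39) and -0.01 (SE 0.29).

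RNA of nephron segments beyond the proximal tubule was at a higher level with exosomes. All 17 markers of the distal tubule and collecting duct were higher at an unadjusted p under 0.05, beside 7.22% of all genes. Of the 17, 11 were without overlap, beside 9.21% of all genes, and 10 were called by DESeq2, beside 1.76%. The median log2 fold was 1.29. The summed level of the 17 was 1634, 2000.2 and 3734 CPM with exosomes, against 659, 1126 and 1087 CPM with scrambled miRNA. Calb1, a calcium-binding protein of the distal convoluted tubule, had 278, 114 and 336 CPM with exosomes, against 15.8, 63.4 and 62.7 CPM with scrambled miRNA (log2 fold 2.36, SE 0.54). Hsd11b2, which protects the mineralocorticoid receptor from glucocorticoids, had 143, 238 and 435 CPM with exosomes, against 62.0, 91.7 and 75.9 CPM with scrambled miRNA (log2 fold 1.83, SE 0.38). Avpr2, the vasopressin receptor of the collecting duct, had 17.1, 23.4 and 40.0 CPM with exosomes, against 4.70, 10.8 and 5.87 CPM with scrambled miRNA (log2 fold 1.92, SE 0.39). None of these 3 overlapped, and exosome replicate 3 was highest in each. The most abundant members Slc12a3 and Aqp2, the thiazide-sensitive cotransporter and the vasopressin-regulated water channel, had log2 folds of 1.11 (SE 0.40) and 1.09 (SE 0.39), with groups that overlapped. Without exosome replicates 1, 2 or 3 in turn 17, 14 or 11 distal markers were higher, and without scrambled-miRNA replicates 1, 2 or 3 the number was 13, 15 or 13. The list's median was 0.91 without exosome replicate 3.

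In the thick ascending limb, 8 of 10 markers were higher and 0 lower at an unadjusted p under 0.05, beside 7.22% of all genes higher, with a median log2 fold of 1.12. Egf, epidermal growth factor, which this segment makes and which is lost after injury, had 3385, 2059 and 7523 CPM with exosomes, against 95.7, 1094 and 432 CPM with scrambled miRNA, a log2 fold of 3.00 (SE 0.80) with an edgeR adjusted p of 0.217. Umod had 14076, 20697 and 25666 CPM with exosomes, against 7145, 17730 and 13544 CPM with scrambled miRNA (log2 fold 0.65, SE 0.37). Slc12a1, the furosemide-sensitive cotransporter, had 3272, 2176 and 4917 CPM with exosomes, against 346, 2187 and 1290 CPM with scrambled miRNA (log2 fold 1.44, SE 0.57). Egf did not overlap between groups, whereas Umod and Slc12a1 did, and scrambled-miRNA replicate 1 was the lowest library in all 3. The number of thick ascending limb markers higher was 10, 8 or 4 without exosome replicates 1, 2 or 3, and 7, 7 or 7 without scrambled-miRNA replicates 1, 2 or 3. The list's median was 0.79 without scrambled-miRNA replicate 1. Podocyte markers, 0 of 11 under that p, had a median of 0.01, with Podxl at 0.01 (SE 0.24).

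Proximal tubule genes had no stable direction. With all libraries 2 of 25 (Slc7a13 and Ttc36) were higher and 0 lower at an unadjusted p under 0.05, beside 7.22% and 4.18% of all genes. The median log2 fold was 0.56. Without exosome replicate 1, 1 was higher and 16 were lower, beside 9.3% and 8.26% of all genes, and the median was -1.03. Kap, an androgen-regulated proximal tubule protein, had 9641, 2067 and 1079 CPM with exosomes, against 4407, 2144 and 3100 CPM with scrambled miRNA (log2 fold 0.41, SE 0.68). Lrp2, the endocytic receptor megalin, had 1785, 249.9 and 237 CPM with exosomes, against 1233, 441 and 416 CPM with scrambled miRNA (log2 fold 0.12, SE 0.76). In both genes exosome replicate 1 was highest and scrambled-miRNA replicate 1 was the highest of its group. Ttc36 had 164, 96.4 and 66.9 CPM with exosomes, against 52.5, 36.4 and 26.6 CPM with scrambled miRNA (log2 fold 1.5, SE 0.35), without overlap.

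RNA of injured tubule was on the lower side, with exosome replicate 2 apart. Of 26 tubule injury genes, 13 were lower and 0 higher at an unadjusted p under 0.05, beside 4.18% of all genes, and the median log2 fold was -0.94. Havcr1, the injury receptor KIM-1, had 8.90, 79.7 and 1.06 CPM with exosomes, against 569, 74.8 and 217 CPM with scrambled miRNA, a log2 fold of -3.26 (SE 1.29) with an edgeR adjusted p of 0.389. Lcn2, the siderophore-binding protein NGAL, had 29.1, 277 and 22.2 CPM with exosomes, against 366, 524 and 628 CPM with scrambled miRNA (log2 fold -2.21, SE 0.87). Exosome replicate 2 lay inside the scrambled-miRNA range for Havcr1 and below it for Lcn2. Spp1, osteopontin, had 2482, 15089 and 2050 CPM with exosomes, against 14119, 20436 and 25269 CPM with scrambled miRNA (log2 fold -1.61, SE 0.70), and Clu, the chaperone clusterin, 255, 3834 and 452 CPM with exosomes, against 3233, 2578 and 3718 CPM with scrambled miRNA (log2 fold -1.07, SE 0.83). Krt20, a keratin of injured epithelium, had 0.08, 1.44 and 0 CPM with exosomes, against 20.3, 8.76 and 12.9 CPM with scrambled miRNA, without overlap. The fibrinogen chain genes Fga, Fgb and Fgg, which injured tubule cells make, had log2 folds of -3.30 (SE 0.94), -3.52 (SE 1.09) and -3.07 (SE 0.92), also without overlap. Leaving out exosome replicates 1, 2 or 3 gave 8, 22 or 7 lower tubule injury genes, and leaving out scrambled-miRNA replicates 1, 2 or 3 gave 11, 9 or 8. Without exosome replicate 2, 22 of 26 were lower and 6 were called by edgeR, with a median of -1.53; without exosome replicate 1, 8 were lower and 1 higher, with a median of -0.69.

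**Figure D3:**
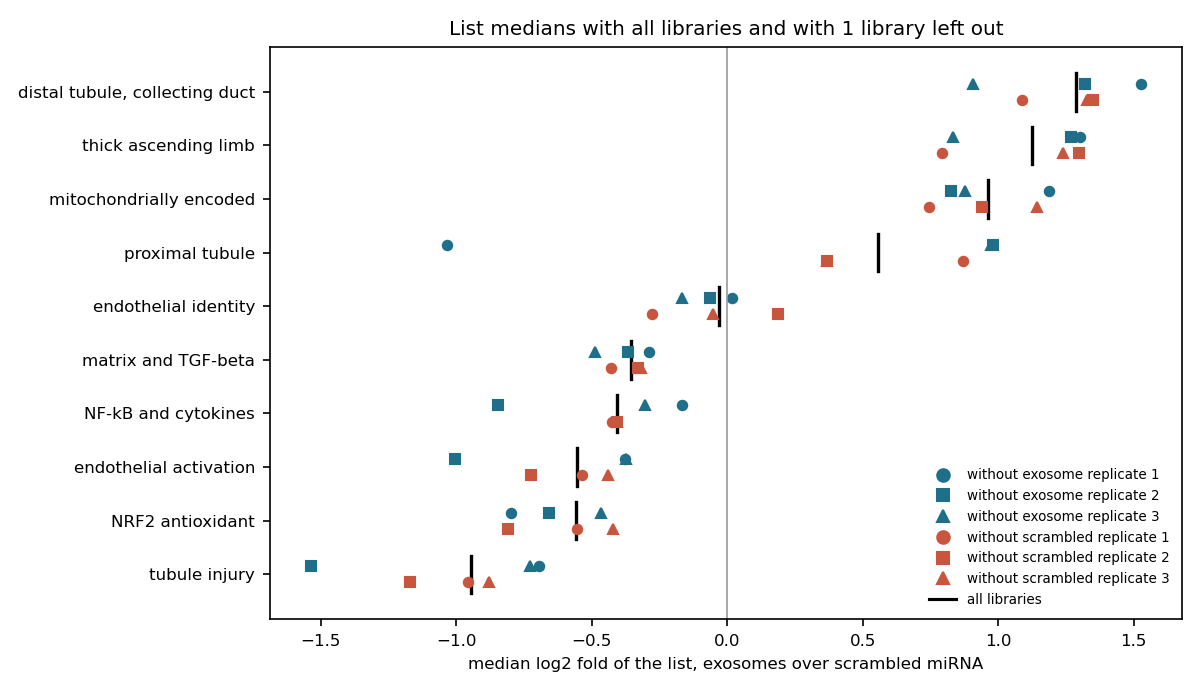
Median log2 fold (x axis) of 10 gene lists, exosomes over scrambled miRNA, with all libraries (black bars) and with 1 library left out (points). Distal tubule, thick ascending limb and mitochondrially encoded lists stay above 0 and tubule injury and NRF2 lists below 0 in every fit shown, while the proximal tubule median is -1.03 without exosome replicate 1.

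Of 13 listed mitochondrially encoded genes, 12 were higher and 0 lower at an unadjusted p under 0.05, beside 7.22% of all genes higher. Of these genes 9 were without overlap, beside 9.21%, and 8 were called by DESeq2, beside 1.76%, and the median log2 fold was 0.96. mt-Co1, a subunit of cytochrome oxidase, had 32294, 54964 and 53935 CPM with exosomes, against 17491, 23813 and 28109 CPM with scrambled miRNA, a log2 fold of 1.02 (SE 0.32) with an edgeR adjusted p of 0.273. mt-Co3 of the same complex and mt-Cytb of complex III had 1.04 (SE 0.31) and 1.04 (SE 0.31). Exosome replicate 1 was the lowest of its group and lay close to scrambled-miRNA replicate 3. Without exosome replicates 1, 2 or 3 in turn 13, 10 or 7 mitochondrially encoded genes were higher, and without scrambled-miRNA replicates 1, 2 or 3 the number was 7, 9 or 11. Nephron cells are rich in mitochondria, and the sums of thick ascending limb and distal tubule markers were higher in the same libraries; their part in this result was not tested.

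Blood cell markers were sparse. Several macrophage, neutrophil and platelet markers were on the lower side, and lymphocyte markers were mostly on the higher side. The summed level of 18 macrophage markers was 419, 700.1 and 522 CPM with exosomes, against 826, 839 and 737 CPM with scrambled miRNA. Of the 18, 2 (Cd14 and Itgam) were lower and 0 higher at an unadjusted p under 0.05, beside 4.18% and 7.22% of all genes. Cd14, a lipopolysaccharide co-receptor, had 23.1, 98.8 and 35.2 CPM with exosomes, against 188, 143 and 157 CPM with scrambled miRNA (log2 fold -1.63, SE 0.47), and Lyz2, lysozyme, -0.67 (SE 0.32). Cd14 carried much of the gap in the sum. Its group means were 52.4 and 163 CPM, beside 547 and 801 CPM for the sum. In proximal tubular libraries Cd14 had a log2 fold of -3.74 (SE 0.73), and the part of tubule RNA in it was not tested. Adgre1, the F4/80 antigen that defines kidney macrophages, had 9.40, 10.3 and 14.6 CPM with exosomes, against 13.1, 16.7 and 12.4 CPM with scrambled miRNA (log2 fold -0.30, SE 0.35), and overlapped. Of 13 neutrophil markers, 8 were tested, 4 were lower (S100a8, S100a9, Retnlg and Mmp8) and 1 higher (Ltf), beside 4.18% and 7.22% of all genes. S100a8, a calcium-binding alarmin of neutrophils, had 2.08, 2.24 and 1.59 CPM with exosomes, against 5.76, 12.1 and 9.26 CPM with scrambled miRNA (log2 fold -2.19, SE 0.41), without overlap. Of 12 platelet markers, 8 were tested and 3 were lower (Pf4, Ppbp and Itgb3), beside 4.18% of all genes, while 4 of the 8 had positive log2 folds and the median was -0.10. Pf4, platelet factor 4, had 2.08, 3.61 and 3.71 CPM with exosomes, against 18.9, 9.44 and 8.50 CPM with scrambled miRNA (log2 fold -1.97, SE 0.40), and Ppbp, another platelet chemokine, 0.75, 0.96 and 0.88 CPM with exosomes, against 13.7, 2.92 and 4.88 CPM with scrambled miRNA (log2 fold -3.04, SE 0.74). Of 18 lymphocyte markers, 16 were tested and 2 (Cd3g and Trac, of the T cell receptor) were higher, beside 7.22% of all genes. Of the 16, 15 had positive log2 folds, with a median of 0.68, or 0.12 without exosome replicate 2. Cd3g had 2.25, 3.61 and 2.74 CPM with exosomes, against 1.49, 0.45 and 0.42 CPM with scrambled miRNA (log2 fold 1.86, SE 0.57).

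Among the remaining lists, no member of the heat shock (16 tested), hypoxia and glycolysis (24), MHC (18) or podocyte (11) lists reached an unadjusted p under 0.05 in either direction. In the same order their median log2 folds were 0.04, 0.04, -0.02 and 0.01. Immediate early genes had 1 of 22 lower (Fosl2), beside 4.18% of all genes, with Fos at 0.25 (SE 0.32) and Jun at 0.16 (SE 0.36). In the unfolded protein and integrated stress list, Herpud1, of endoplasmic reticulum protein disposal, had 278, 224 and 229 CPM with exosomes, against 135, 144 and 124 CPM with scrambled miRNA (log2 fold 0.86, SE 0.16), while the amino acid response genes Atf5 and Asns had -0.97 (SE 0.23) and -1.18 (SE 0.34). Among 24 tested cell cycle genes, 1 (Ccnd1, cyclin D1) was under that p, at 659, 298 and 571 CPM with exosomes, against 288, 237 and 282 CPM with scrambled miRNA (log2 fold 0.92, SE 0.28), and the median of the list was -0.51. That median was -0.007 without scrambled-miRNA replicate 1, and the summed level of the list was 851, 599 and 749.7 CPM with exosomes, against 693, 469 and 509 CPM with scrambled miRNA. Much of that sum was Ccnd1, with group means of 510 and 269 CPM beside 733 and 557 CPM for the sum. Of the 24 log2 folds, 21 were negative. In the p53 and apoptosis list 5 of 24 were lower (Trp53, Cdkn1a, Eda2r, Casp8 and Bak1) and 1 higher (Bcl2), beside 4.18% and 7.22% of all genes. The number of p53 list genes lower was 6, 5 or 1 without exosome replicates 1, 2 or 3, and 3, 4 or 2 without scrambled-miRNA replicates 1, 2 or 3. Glomerular endothelial markers had 1 of 10 higher (Lpl), beside 7.22% of all genes. The venous, arterial and lymphatic endothelial lists had 1 lower each of 8, 10 and 5 tested, beside 4.18%. Fibroblast and pericyte markers had 2 of 12 tested lower, beside 4.18% of all genes. Erythroid markers had 1 of 7 tested higher (Slc4a1, an anion exchanger that collecting duct cells also make, at 2.38 (SE 0.60)), beside 7.22%. Of those 7, 6 had positive log2 folds, and the median was 0.53. Coagulation genes had 5 of 19 tested lower (among them Vwf, Anxa2, S100a10 and Thbs1) and 0 higher, beside 4.18% of all genes lower. Leaving out exosome replicates 1, 2 or 3 gave 4, 7 or 3 lower coagulation genes, and leaving out scrambled-miRNA replicates 1, 2 or 3 gave 9, 3 or 2.

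For the other members with most reads in their lists, none reached an unadjusted p under 0.05 except S100a9 (log2 fold -1.52, SE 0.49) and Itgb3 (log2 fold -0.86, SE 0.35). The chaperones Hsp90ab1, Hspa1b, Calr and Hspa5 had -0.04 (SE 0.19), 0.62 (SE 0.54), 0.06 (SE 0.24) and 0.07 (SE 0.21). The glycolytic enzymes Aldoa and Pkm had 0.18 (SE 0.20) and 0.23 (SE 0.27), and the antigen presentation genes H2-D1 and B2m -0.14 (SE 0.22) and 0.09 (SE 0.33). Mcl1, Ccng1 and Pcna, of survival and the cell cycle, had -0.10 (SE 0.16), 0.03 (SE 0.20) and -0.06 (SE 0.21), and the aldosterone-responsive kinase Sgk1 -0.08 (SE 0.29). Igfbp3, Cxcl12 and Pdpn of the vein, artery and lymph vessel lists had -0.59 (SE 0.40), 0.58 (SE 0.55) and 0.02 (SE 0.27), and Pdgfrb and Ren1 of the pericyte list -0.18 (SE 0.24) and -0.04 (SE 0.24). Immunoglobulin genes Ighm and Igkc had 0.60 (SE 0.44) and 0.32 (SE 0.45), and globin genes Hbb-bs and Hba-a2 0.48 (SE 0.33) and 0.53 (SE 0.33).

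**Figure D4:**
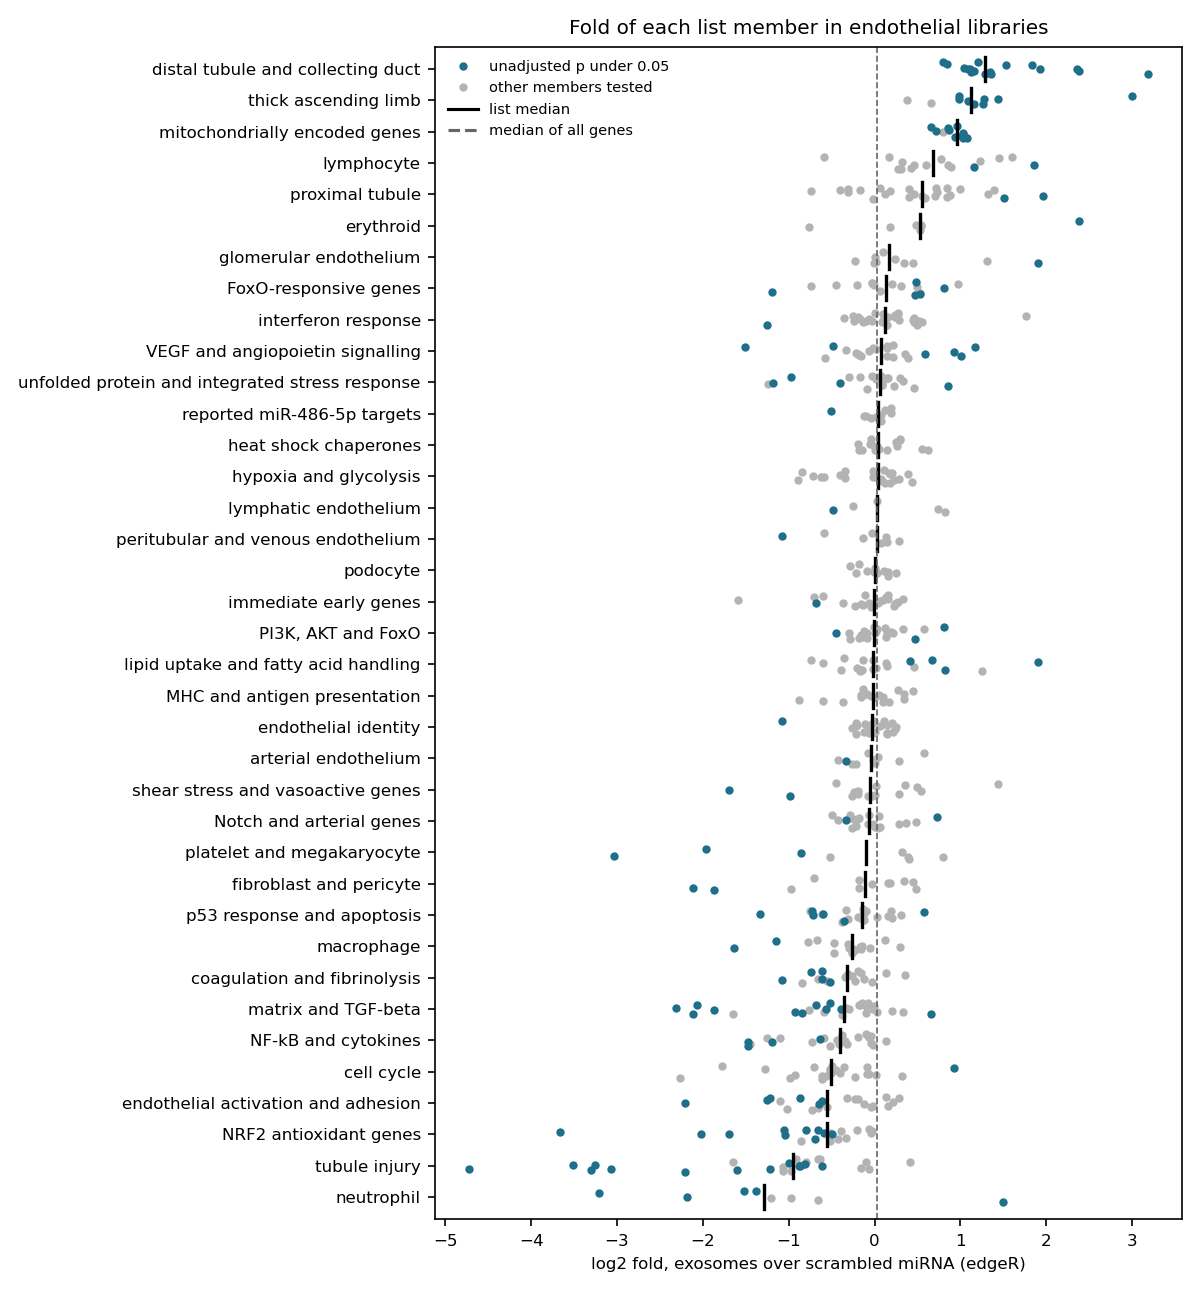
Log2 fold (x axis, exosomes over scrambled miRNA) of every tested member of the 37 gene lists; coloured points had an unadjusted p under 0.05, black bars are list medians and the dashed line is the median of all genes, 0.02. Distal tubule markers lie at the top with all 17 members coloured, and neutrophil, tubule injury and NRF2 lists lie at the bottom.

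The 10 genes of smallest unadjusted p on each side, among those with a mean of at least 100 reads, stood clear of overlap but did not pass adjustment. On the higher side, Mcee (methylmalonyl-CoA epimerase of propionate breakdown; chromosome 7, 64392607 to 64412125, plus strand) had 51.5, 41.7 and 51.8 CPM with exosomes, against 19.9, 26.3 and 23.1 CPM with scrambled miRNA, a log2 fold of 1.07 (SE 0.16). Apoo, a subunit of the complex that shapes mitochondrial cristae, had 87.4, 45.3 and 60.9 CPM with exosomes, against 23.7, 24.4 and 25 CPM with scrambled miRNA (log2 fold 1.41, SE 0.23). Isca2, which builds iron-sulfur clusters in mitochondria, had 32.7, 30.3 and 31.1 CPM with exosomes, against 16.1, 15.8 and 19.4 CPM with scrambled miRNA (log2 fold 0.87, SE 0.15). In all 3 the lowest exosome library lay well above the highest scrambled-miRNA library. Adssl1, an adenylosuccinate synthase, had 30.5, 15.9 and 51.9 CPM with exosomes, against 4.17, 6.74 and 6.56 CPM with scrambled miRNA (log2 fold 2.49, SE 0.40). The glutathione transferase gene Gstt1, the lysosomal protease gene Ctsf and the deubiquitinase gene Usp2 had 0.93 (SE 0.15), 1.52 (SE 0.26) and 1.23 (SE 0.21). The last of the 10 were Lrrc66, Gm47708 and 2300009A05Rik, with 1.74 (SE 0.29), 3.19 (SE 0.55) and 1.04 (SE 0.18).

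On the lower side, F13a1 (the A subunit of coagulation factor XIII, made by macrophages and platelets; chromosome 13, 36867178 to 37050244, minus strand) had 2.74, 3.61 and 2.48 CPM with exosomes, against 27.7, 17.4 and 11.9 CPM with scrambled miRNA, a log2 fold of -2.69 (SE 0.34) at an unadjusted p of 2.6e-05. Chil3, a chitinase-like protein of myeloid cells, had 1.91, 3.13 and 0.71 CPM with exosomes, against 14.9, 28.8 and 23.4 CPM with scrambled miRNA (log2 fold -3.53, SE 0.47). Plin2 had 69.4, 54.4 and 38.5 CPM with exosomes, against 199.6, 137 and 184 CPM with scrambled miRNA (log2 fold -1.68, SE 0.24). In these 3 genes the highest exosome library lay far below the lowest scrambled-miRNA library. Psat1, of serine synthesis, had 27.6, 23.9 and 15.8 CPM with exosomes, against 89.8, 53.5 and 75.1 CPM with scrambled miRNA (log2 fold -1.70, SE 0.25). Cp, the ferroxidase ceruloplasmin, had 62.9, 60.9 and 65.1 CPM with exosomes, against 116, 105 and 117 CPM with scrambled miRNA (log2 fold -0.83, SE 0.13). Lrg1, a secreted glycoprotein that acts on endothelial TGF-beta signalling, had 8.32, 21.2 and 10.9 CPM with exosomes, against 49.5, 58.0 and 46.8 CPM with scrambled miRNA (log2 fold -1.93, SE 0.34). The other 4 were Slc25a24, a mitochondrial carrier, Hipk2, a nuclear kinase, Syne2, of the nuclear envelope, and Gm12840, with -1.14 (SE 0.19), -0.90 (SE 0.16), -1.07 (SE 0.20) and -1.47 (SE 0.24). All 20 genes had an edgeR adjusted p from 0.184 to 0.186 and were called by DESeq2.

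**Figure D5:**
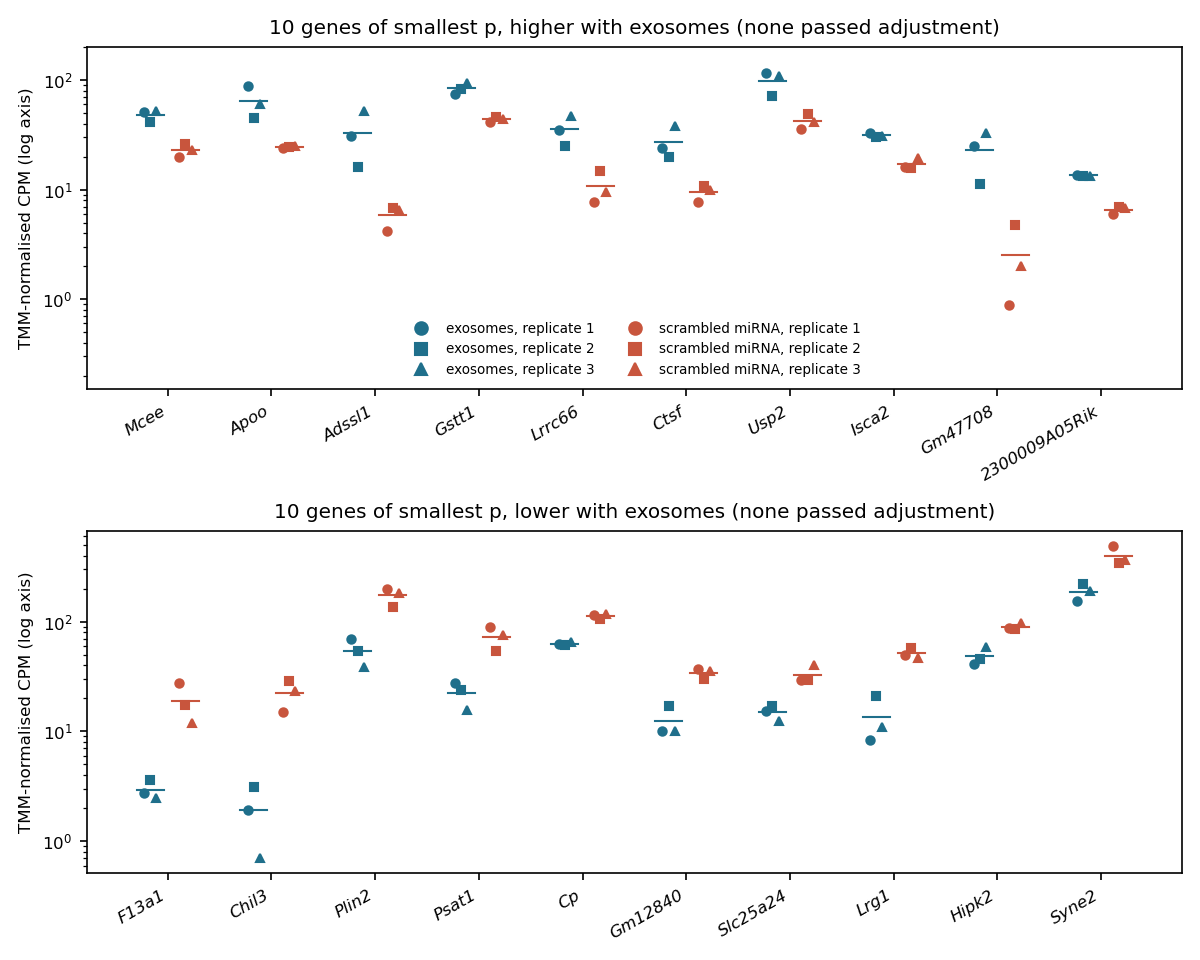
TMM-normalised CPM (log axis) in each endothelial library of the 10 genes of smallest unadjusted p on each side, exosomes left of scrambled miRNA; points are libraries and bars are group means. The groups do not overlap for any of the 20 genes, and none passed edgeR's adjustment.

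Whether the difference between exosomes and scrambled miRNA was larger or smaller in endothelial than in proximal tubular libraries was tested gene by gene in a fit of all 16 libraries. Endothelial and tubular libraries of these 2 treatments carry the same library numbers, and whether they share mice is not stated. The fit took them as independent. Of 17143 genes, 0 had an interaction called by edgeR (0%), and 1333 had an unadjusted p under 0.05 (7.78%). DESeq2 called 34, and edgeR called 76 without exosome replicate 1 and 2 without exosome replicate 2 of the endothelial libraries. Among the 17 distal tubule and collecting duct markers, 9 had an unadjusted p under 0.05 and the median interaction term, endothelial minus tubular, was 1.97 on the log2 scale. Calb1 had a log2 fold of 2.36 in endothelial libraries, beside -0.03 in tubular libraries, with an interaction term of 2.36 (SE 0.77, edgeR adjusted p 0.536). The tubule injury list had 7 of 26 under that p with a median term of 1.6, its endothelial median being -0.94 and its tubular median -3.05. In the tubular fit edgeR called 15 of its genes lower, beside 359 of all 14913 genes tested there. The NRF2 list had 1 of 20 under that p with a median term of 0.11, at medians of -0.56 in endothelial and -0.61 in tubular libraries. The mitochondrially encoded list had 0 of 13, at medians of 0.96 in endothelial and 0.88 in tubular libraries, and endothelial identity 2 of 25, at -0.03 and 0.29.

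The authors' deposited tables set each treatment against other endothelial groups, with folds of the first-named group over the second. They share samples with each other and with the comparison above, so their values are given side by side only. In the authors' deposited table of untreated injury over sham, 638 of 19354 genes were positive and 215 negative at an adjusted p under 0.05. In their table of exosomes over sham 616 of 18377 were positive and 620 negative. In the authors' deposited table of untreated injury over exosomes 327 of 17888 were positive and 348 negative. In their table of untreated injury over scrambled miRNA 70 of 20333 were positive and 84 negative. For the 26 tubule injury genes, the authors' deposited tables called 12 positive in exosomes over sham, 22 positive in untreated injury over sham, 8 positive in untreated injury over exosomes and 0 in untreated injury over scrambled miRNA. For the 20 NRF2 genes, the authors' deposited tables called in the same order 0, 6, 7 and 0 positive and none negative. Hmox1 had a log2 fold of 1.49 (adjusted p 0.0115) in the authors' deposited table of untreated injury over exosomes and 0.02 (adjusted p 0.952) in that over scrambled miRNA. F13a1 had 0.10 (adjusted p 0.749) and -1.68 (adjusted p 0.0138) in the same 2 authors' deposited tables.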

How the data were processed

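RNA had been made into polyA-selected libraries, per the labels' protocols. Per the submitters' processing notes, Salmon 0.13.1 and DESeq2 were used with build GRCm38. The authors deposited estimated counts and TPM per transcript for 16 samples, per the file headers, and tables of log2 fold changes with p-values for endothelial comparisons. The estimated counts of 136202 transcripts were summed to 53392 genes by the gene ID in each transcript name and rounded to whole numbers. Gene coordinates came from GENCODE M21, which held 52175 of these gene IDs. edgeR 4.0.16 (R 4.3.3) was used with TMM normalisation, a low-count filter by group, a quasi-likelihood F test and Benjamini-Hochberg adjustment at 0.05. The 8 injured endothelial libraries, 2 of them of the mimic arm, shared 1 estimate of spread, which left 16316 genes and 5 residual degrees of freedom. A fit of 16 libraries from both cell types gave the interaction. SE is the size of the log2 fold divided by the root of F. DESeq2 1.42.0, other normalisations, no filter, a replicate block and leaving out each library were the alternatives. The fits were also run on simulated counts with known changes, and the outcome is not given here. The counts by list with each library left out were chosen after seeing the data.

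Gene lists and genes were chosen with earlier results of these data known. The rule named the 10 genes of smallest p on each side with a mean of at least 100 reads, the 2 members with most reads of each of 37 lists, and 15 genes of standing interest, giving 93 genes once some that are not reported here were left out. A further 41 were chosen after their values were seen, among them Vwf, Vegfb, Esm1, Ptgs2, Col4a2, Hmox1, Srxn1, Gclc, Calb1 and Ppbp, and other list members are given as those under an unadjusted p of 0.05. Nothing in the labels ties a library to a mouse, so p-values measure the spread between these libraries, which may be technical. With 3 libraries against 3, an exact permutation test of a single value could not go below a two-sided p of 0.1.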

Additional observations from a re-analysis of the deposited data

How the results depend on the processing

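edgeR called 0 genes higher and 0 lower with RLE size factors, an effective length offset, no mimic libraries, or the replicate block. The interaction was refitted without the mimic libraries and with library number as a block, and 0 were called in either. DESeq2 called 287 higher, 125 lower and 34 interactions. With no low-count filter edgeR called 577, 319 and 503, of which 331 of the 896 higher or lower calls were shared with DESeq2; the cause was not tested. Leaving out 1 library at a time gave 0 to 21 higher, 0 to 34 lower and 0 to 76 interactions; the calls above 0 came without exosome replicate 1 (2, 7 and 76) and exosome replicate 2 (21, 34 and 2). These left-out sets shared 0 higher or lower calls, and 34 of the 55 without exosome replicate 2 were DESeq2 calls. Replicate numbers were not taken to pair the groups: same-numbered exosome and scrambled-miRNA libraries deviated together with r of 0.24, -0.01 and 0.05.

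Log2 folds of 32 named genes changed sign under an alternative, the largest of them with all libraries being Cxcl12 (0.58), Kap (0.41), Cd36 (-0.36) and Igkc (0.32). With the effective length offset they were 0.033 for Plvap, 0.13 for Efnb2, 0.0083 for Hsp90ab1, -0.020 for Hspa5, -0.075 for Ccng1, 0.0048 for Txnip, -0.12 for Podxl and 0.52 for Ren1. Without the mimic libraries they were -0.0076 for Ccng1, -0.012 for Pdpn, -0.030 for Podxl and -0.027 for Pecam1. With the replicate block they were 0.027 for Txnip, -0.076 for Kap, -0.28 for Lrp2 and 0.0021 for Sele, and with no filter 0.0025 for Txnip. Podxl and Pecam1 had -0.0028 and -0.000293 with DESeq2 and -0.0028 and -0.000407 with RLE size factors. The cause was not tested. Over the fits that left out 1 library, log2 folds spanned -0.30 to 0.14 for Kdr, -0.24 to 0.17 for Plvap, -0.22 to 0.11 for Efnb2, -0.38 to 0.28 for Sgk1, -0.56 to 0.043 for Plat, -0.31 to 0.22 for Nfkbia, -0.34 to 0.12 for Tnfaip2, -0.090 to 0.38 for Irf1, -0.11 to 0.50 for Jun, -0.20 to 0.022 for Hsp90ab1, -0.15 to 0.25 for Calr, -0.10 to 0.24 for Hspa5, -0.18 to 0.14 for Ccng1, -0.28 to 0.066 for Pcna, -0.31 to 0.011 for Igf1r, -0.025 to 0.37 for Arhgap5, -0.29 to 0.29 for Txnip, -0.27 to 0.041 for Sparc, -0.35 to 0.36 for B2m, -1.61 to 0.0066 for Cd36, -0.51 to 0.98 for Cxcl12, -0.20 to 0.27 for Pdpn, -1.03 to 0.84 for Kap, -0.23 to 0.12 for Podxl, -0.18 to 0.16 for Ren1, -0.057 to 0.56 for Igkc, -0.17 to 0.19 for Pecam1, -1.52 to 0.79 for Lrp2, -0.066 to 0.25 for Foxo1, -0.35 to 0.17 for Sele, -0.02 to 0.36 for Emcn and -0.28 to 0.21 for Cldn5. The depth of 8.27 to 13.6 M reads limits genes of a few CPM, such as blood cell markers.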
